A study of Mus musculus with 5 samples.

Results

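The Hox genes were followed in the neural tubes of 5 mouse embryos by RNA sequencing. They were taken as every gene symbol in the deposited count files that is the word Hox followed by a cluster letter (a, b, c or d) and a number, and 39 of the 23284 symbols met this rule. Of these, 11 belonged to the Hoxa, 10 to the Hoxb, 9 to the Hoxc and 9 to the Hoxd cluster. The embryos came from matings of EpoR+/- mice, in which 1 allele encoding the erythropoietin receptor is deleted. They comprised 2 EpoR -/- embryos (EpoR-null 1 and 2), 2 EpoR +/+ embryos (wild type 1 and 2) and 1 EpoR +/- embryo (heterozygote 1), and the last 3 served together as littermate controls. The labels give an age of E8.5 and the study's methods a slightly later stage for all of them. Neural tubes were freed from surrounding tissue by hand and with enzyme, no cell type was sorted, and polyA RNA was sequenced. The deletion was inherited and not confined to neural tissue, so the EpoR-null embryos lacked the receptor in blood as well.

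Hox genes encode homeodomain transcription factors that give cells their position along the head to tail axis. Mammals carry them in 4 clusters, and the genes at the same place in each cluster form a paralog group. Low-numbered groups are transcribed earlier and further towards the head, with borders between hindbrain segments, and high-numbered groups later and further towards the tail, along the spinal cord. In the neural tube their borders are set by retinoic acid, by Wnt and fibroblast growth factor signals relayed through Cdx proteins, and by Polycomb and Trithorax proteins, which close or open the chromatin of the clusters. Hox proteins bind DNA together with the TALE homeodomain partners Pbx and Meis.

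The annotated promoters differ between neighbouring members, and 5 are shown: those of the adjacent genes Hoxa5, Hoxa6 and Hoxa7, because Hoxa6 was the only member that passed the test between genotypes, and those of Hoxb1, which holds a Pbx-Hox match, and Hoxb8, which holds the most motif matches. Each is the 250 bases before an annotated transcription start, from RefSeq on the build GRCm38.p6, printed 5′ to 3′ on the strand of the gene. The windows were chr6:52204588-52204837 for Hoxa5, chr6:52208673-52208922 for Hoxa6 and chr6:52218574-52218823 for Hoxa7, on the minus strand, and chr11:96365508-96365757 for Hoxb1 and chr11:96281655-96281904 for Hoxb8, on the plus strand. Capitals mark matches to a Cdx motif (TTTATG, or CATAAA on the other strand), a Pbx-Hox motif (TGATNNAT, or ATNNATCA on the other strand) and a TATA motif (TATAAA, or TTTATA on the other strand, which shares its first 5 letters with the Cdx motif).
Hoxa5: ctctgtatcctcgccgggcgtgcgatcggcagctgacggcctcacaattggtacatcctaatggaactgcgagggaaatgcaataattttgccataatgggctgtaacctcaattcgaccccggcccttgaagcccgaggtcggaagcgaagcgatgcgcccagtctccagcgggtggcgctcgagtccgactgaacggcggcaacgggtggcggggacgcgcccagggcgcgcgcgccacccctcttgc
Hoxa6: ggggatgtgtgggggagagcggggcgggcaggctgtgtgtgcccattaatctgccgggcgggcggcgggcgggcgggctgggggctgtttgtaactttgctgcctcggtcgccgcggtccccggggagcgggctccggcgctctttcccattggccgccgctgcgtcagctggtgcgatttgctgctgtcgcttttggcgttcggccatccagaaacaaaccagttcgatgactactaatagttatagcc
Hoxa7: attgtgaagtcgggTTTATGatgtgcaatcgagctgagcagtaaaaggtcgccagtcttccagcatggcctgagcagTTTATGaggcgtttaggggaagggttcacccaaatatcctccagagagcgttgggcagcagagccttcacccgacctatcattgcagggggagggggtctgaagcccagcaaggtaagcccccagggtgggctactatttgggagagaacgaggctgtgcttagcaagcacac
Hoxb1: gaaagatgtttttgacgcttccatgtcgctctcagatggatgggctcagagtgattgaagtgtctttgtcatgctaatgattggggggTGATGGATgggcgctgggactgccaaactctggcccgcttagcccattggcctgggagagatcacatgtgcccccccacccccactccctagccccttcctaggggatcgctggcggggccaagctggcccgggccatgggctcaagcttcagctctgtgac
Hoxb8: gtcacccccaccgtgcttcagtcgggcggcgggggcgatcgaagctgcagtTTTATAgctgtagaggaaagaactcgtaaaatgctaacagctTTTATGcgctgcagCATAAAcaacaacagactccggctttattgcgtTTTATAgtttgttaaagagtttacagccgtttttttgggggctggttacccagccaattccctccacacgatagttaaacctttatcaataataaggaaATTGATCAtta

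The Hoxa5 and Hoxa6 windows held no match to any of the 3 motifs, while the Hoxa7 window held 2 Cdx matches and the Hoxb8 window 2 Cdx, 1 Pbx-Hox and 2 TATA matches. Windows were found for 22 of the 39 members, with 24 windows in all. A Cdx match was present in 5 of them (20.8%, against 10.8% of all 32851 promoter windows), a Pbx-Hox match in 4 (16.7%, against 7.68%) and a TATA match in 4 (16.7%, against 12.4%). The Hoxa6 window contained 24 CG dinucleotides and the Hoxa7 window 7, with a median of 12.5 over the Hox windows and 6 over all windows. A match describes letters only, and binding was not measured.

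Reads counted on genes ranged from 19316126 to 41169218 per library, so that 3 reads corresponded to between 0.0714 and 0.151 counts per 1000000 reads (CPM, on library sizes normalized by TMM). Epor itself was found at 2.35 and 1.62 CPM in wild type 1 and 2, at 0.475 CPM in the heterozygote and at 0.353 and 0.668 CPM in EpoR-null 1 and 2, so its level separated both wild type embryos from the others but not the heterozygote from the EpoR-null embryos. The neural progenitor markers Sox1, Sox2, Sox3, Pax6, Nes and Olig2 summed to between 1170 and 1536 CPM, but single markers differed between the EpoR-null embryos. Nes was at 634, 579 and 737 CPM in wild type 1, wild type 2 and the heterozygote and at 777 and 368 CPM in EpoR-null 1 and 2. Olig2 was at 76.2, 86.7 and 85.3 CPM against 39.8 and 90.3 CPM. The 6 forebrain and midbrain markers summed to 6.31 CPM in EpoR-null 1, where En1 was at 3.99 CPM and Lhx2 at 1.77 CPM, and to between 0.915 and 1.69 CPM in the other 4 libraries. Markers of other tissues differed between the control libraries. Somite markers summed to 44.4 CPM in wild type 1, 41.5 CPM in wild type 2 and 9.03 CPM in the heterozygote, against 86.0 and 30.5 CPM in EpoR-null 1 and 2, and erythroid markers to 1074, 592 and 43.3 CPM against 1674 and 954 CPM. Lateral plate and heart markers summed to at most 1.44 CPM. As the tissue was not sorted, fewer cells of a type and less RNA per cell cannot be told apart. The p-values set a difference between groups against the spread among these 5 libraries. The litter of each embryo and the batch are not given in the sources used here.

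The 39 members together took 1317 and 1164 CPM in wild type 1 and 2, 1397 CPM in the heterozygote, and 1336 and 1284 CPM in EpoR-null 1 and 2. The genotypes overlapped, and the Hox genes accounted for 0.119 to 0.141% of the reads on genes. Of the members, 29 exceeded 1 CPM in at least 2 libraries and were tested. The other 10 were all of paralog groups 10 to 13: Hoxa13, Hoxc11, Hoxc12 and Hoxc13 had 0 reads in every library, and Hoxa11, Hoxb13, Hoxd10, Hoxd11, Hoxd12 and Hoxd13 had at most 5 reads in any library. At this depth the groups that pattern the sacral and tail regions were therefore not detectable or barely so.

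Per kilobase of transcript, Hoxb9, a gene of the thoracic spinal cord, was the most abundant member, with a mean level over the 5 libraries of 100.2 CPM per kb. Hoxd4, Hoxb3 and Hoxd3, which mark the posterior hindbrain, followed at 48.3, 40.1 and 39.1 CPM per kb, then Hoxb8 at 33.0, Hoxc4 at 29.2 and Hoxa2 at 27.2 CPM per kb. The ranges of Hoxd4, Hoxb3 and Hoxd3 over the libraries overlapped, so their order was not resolved. The order did not follow the paralog number alone: within the Hoxa, Hoxc and Hoxd clusters the level fell towards the highest-numbered groups, while Hoxb9 stood above every other member in all 5 libraries. Part of the reads of some members cannot be assigned with certainty. In the GENCODE M21 annotation 62.3% of the exon bases of Hoxd3 and 52.3% of those of Hoxd4 lie in another gene of the same strand, and 52.9% of those of Hoxb3 lie in its antisense gene, whereas Hoxa6 shares none. Counting only genes whose symbols are in the files, 9.3% of the exon bases of Hoxd3, 13.2% of those of Hoxd4 and 0% of those of Hoxb3 are shared.

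**Figure D1:**
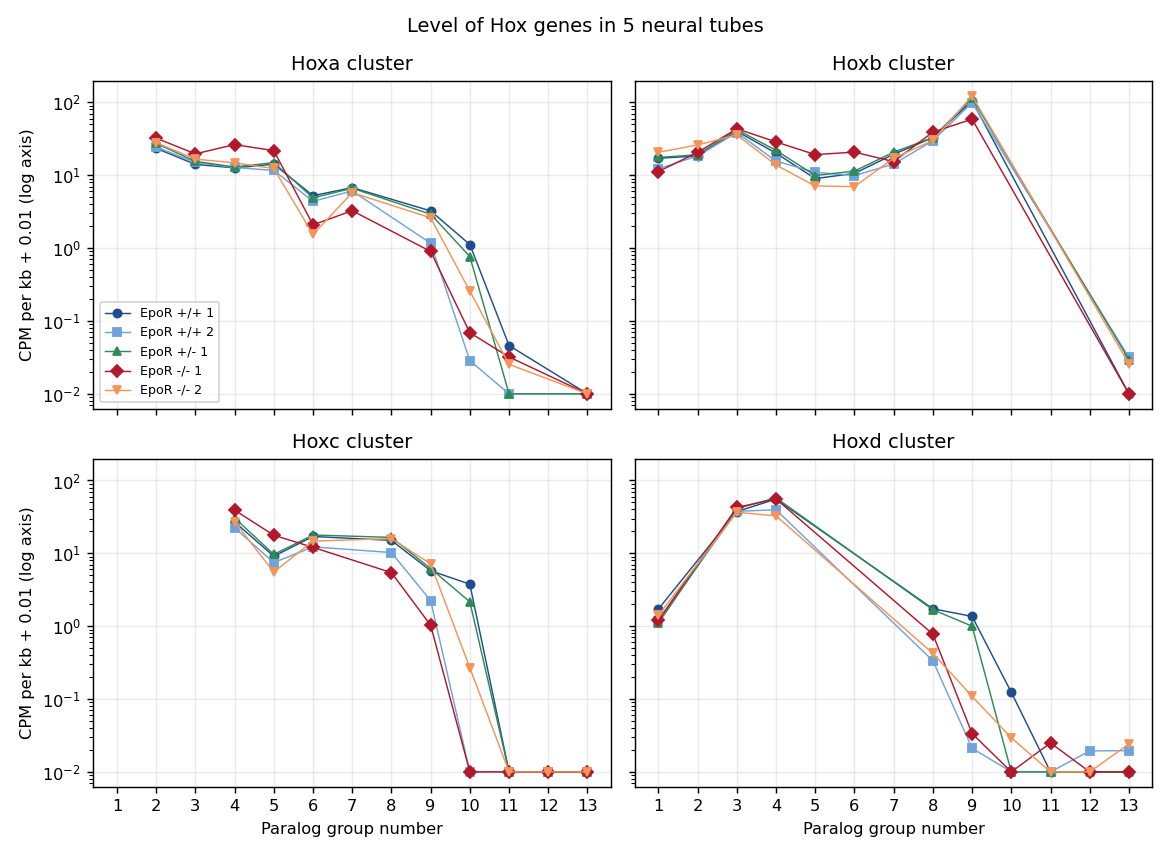
Level of 38 of the 39 Hox genes in CPM per kb of transcript, with 0.01 added, on a log axis against the paralog group number, 1 panel per cluster and 1 line per neural tube library (points at 0.01 are genes with 0 reads). The 5 libraries lie closest together at Hoxb3, Hoxd3 and Hoxb8 and furthest apart at Hoxa10, Hoxc10 and Hoxd9, where wild type 1 and the heterozygote lie above the other 3 libraries.

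By cluster, Hoxb genes held the largest share of the Hox reads, between 50.1 and 56.5% of the summed CPM in every library. Hoxa genes summed to 187, 181 and 195 CPM in wild type 1, wild type 2 and the heterozygote and to 225 and 213 CPM in EpoR-null 1 and 2. Both EpoR-null sums lay above all 3 controls (219 ± 8.43 CPM, SD, n = 2, against 188 ± 7.05 CPM, n = 3), which also occurred for 21.2% of single genes tested. The same difference had the opposite sign, -0.11, when the mean of log2(CPM + 1) over the 11 Hoxa genes was taken in place of their sum. The sums of the Hoxb, Hoxc and Hoxd clusters overlapped between genotypes. Clusters are not independent of one another, and their sums were not tested.

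By paralog group, the sums of groups 3, 4 and 9 were the highest in all controls. Group 9 summed to 298, 265 and 321 CPM in wild type 1, wild type 2 and the heterozygote, and to 157 CPM in EpoR-null 1 but 342 CPM in EpoR-null 2. Group 5 showed the reverse, with 78.3, 74.2 and 83.9 CPM in the controls, 146 CPM in EpoR-null 1 and 59.2 CPM in EpoR-null 2. In both groups the 3 controls lay between the EpoR-null embryos. Group 2 alone had both EpoR-null sums above all controls, at 122 and 132 CPM against 99.2, 101 and 109 CPM. The mean paralog number weighted by CPM was 5.27, 5.13 and 5.25 in the controls and 5.24 in EpoR-null 2, against 4.67 in EpoR-null 1.

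**Figure D2:**
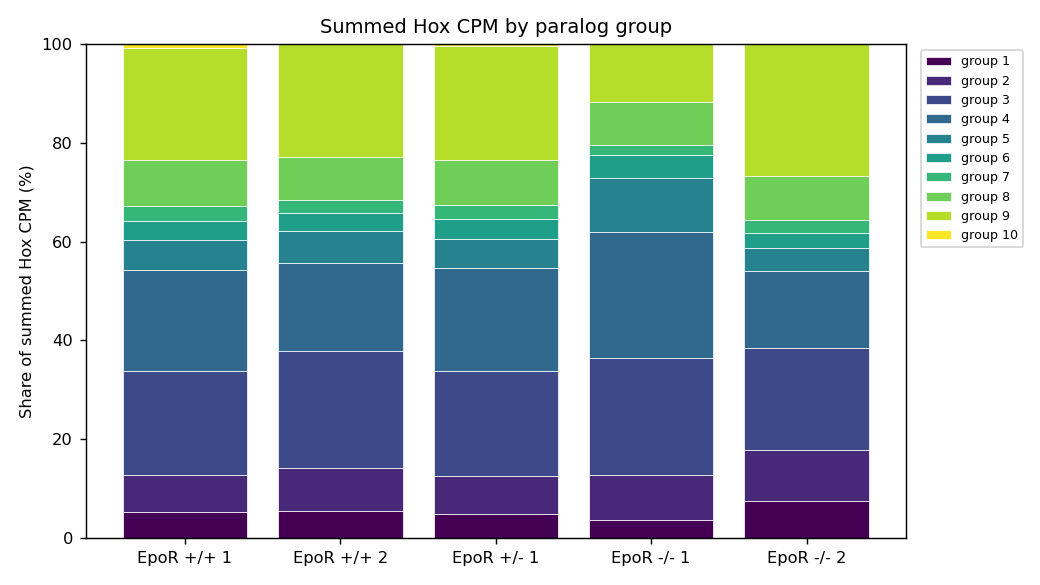
Share of the summed Hox CPM, in percent, held by each paralog group from 1 to 10 in each library, stacked from group 1 at the bottom (groups 11 to 13 held at most about 0.01% and are not drawn). Group 9 took 22.6 to 23.0% in the controls, 11.8% in EpoR-null 1 and 26.6% in EpoR-null 2, and group 5 took 5.94 to 6.38% in the controls, 10.9% in EpoR-null 1 and 4.61% in EpoR-null 2.

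To ask which Hox genes differed with the loss of the erythropoietin receptor, the 2 EpoR-null libraries were compared with the 3 controls across all 12703 genes tested, by the exact test of edgeR. Hoxa6 fell, and it was the only one of the 29 tested members past p < 0.001 and FDR < 0.05 in the exact test, that is 0 members higher and 1 lower, where 4.77% of all genes tested passed (0.929% higher and 3.84% lower). Hoxa6, which acts at the cervical to upper thoracic level, was found at 4.58, 3.83 and 4.28 CPM in wild type 1, wild type 2 and the heterozygote (111, 161 and 99 reads) and at 1.82 and 1.34 CPM in EpoR-null 1 and 2 (36 and 38 reads). Both EpoR-null values lay below all controls and differed from one another by less than the groups did (1.58 ± 0.339 CPM, SD, n = 2, against 4.23 ± 0.377 CPM, n = 3). The log2 fold change was -1.43 with a standard error of 0.38 (edgeR exact test, p = 0.00025, FDR = 0.00798). Neither adjacent gene passed. Hoxa5 was found at 26.6, 21.9 and 28.0 CPM in the controls and at 40.9 and 23.3 CPM in the EpoR-null embryos (log2 fold change 0.33, edgeR FDR = 0.586). Hoxa7 was found at 13.7, 12.4 and 13.5 CPM against 6.61 and 11.7 CPM (-0.52, edgeR FDR = 0.42).

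The direction for Hoxa6 held with each library left out, but the call did not. The log2 fold change lay between -1.65 and -1.22, and the FDR rose to 0.0786 without the heterozygote, 0.275 without wild type 1, 0.0835 without wild type 2 and 0.0573 without EpoR-null 2, while it was 0.00275 without EpoR-null 1. Of all genes tested, 2% passed without the heterozygote, 0.913% without wild type 1, 2.33% without wild type 2, 18.3% without EpoR-null 1 and 7.76% without EpoR-null 2. Where an EpoR-null embryo is left out, the other one is assumed to vary as the controls do, since they alone then supply the spread. The quasi-likelihood F-test of edgeR, by which 0% of all genes passed, gave Hoxa6 an FDR of 0.0697.

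The remaining 28 members did not pass the test. Of the 29, 14 had a log2 fold change above 0 and 15 below 0, with a median of -0.02, where 56.2% of all genes tested lay above 0 with a median of 0.06. At an unadjusted p below 0.05 there were 3 members, against 19.8% of all genes. Hoxa4 had the next lowest p after Hoxa6. It was found at 20.1, 20.4 and 20.7 CPM in the controls and at 42.0 and 23.6 CPM in EpoR-null 1 and 2. The controls were close together and EpoR-null 1 stood far above EpoR-null 2 (log2 fold change 0.68, standard error 0.30, edgeR FDR = 0.143).

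Both EpoR-null values lay above all controls for Hoxa2, Hoxa3, Hoxa4 and Hoxb2 and below all controls for Hoxa6 and Hoxa7, which is 4 and 2 of 29 members, where 21.2 and 22.1% of all genes tested did so. Hoxa2 and Hoxb2 regulate segment identity and motor neurons in the hindbrain. Hoxa2 was found at 41.6, 43.4 and 48.7 CPM in the controls and at 57.4 and 49.9 CPM in the EpoR-null embryos (log2 fold change 0.27, edgeR FDR = 0.387). Hoxb2 was found at 57.6, 57.8 and 59.9 CPM against 64.6 and 81.6 CPM (log2 fold change 0.32, edgeR FDR = 0.245), and it passed only without EpoR-null 1, against the spread of the controls alone, with a log2 fold change of 0.48 and an FDR of 0.000427. Hoxa3 was found at 36.5, 38.9 and 40.2 CPM against 51.0 and 43.1 CPM (log2 fold change 0.29, edgeR FDR = 0.346).

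Hoxb3, Hoxd3 and Hoxb8 varied little between the libraries, and Hoxc4 and Hoxd4 more. Hoxb3 was found at 128, 123 and 135 CPM in the controls and at 139 and 114 CPM in the EpoR-null embryos, with a log2 fold change of -0.03 and a standard error of 0.15. Hoxd3 was found at 111, 112 and 122 CPM against 126 and 109 CPM, with a log2 fold change of 0.03 and a standard error of 0.15. For both genes the EpoR-null values enclosed those of the controls. Hoxb8 was found at 86.8, 78.3 and 86.8 CPM against 103 and 79.3 CPM (log2 fold change 0.12, standard error 0.17). Hoxc4 was found at 57.1, 47.5 and 65.0 CPM against 83.0 and 57.2 CPM (0.31, standard error 0.24), and Hoxd4 at 142, 101 and 148 CPM against 143 and 83.6 CPM (-0.20, standard error 0.30). In each of these 3 genes the 2 genotypes overlapped.

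**Figure D3:**
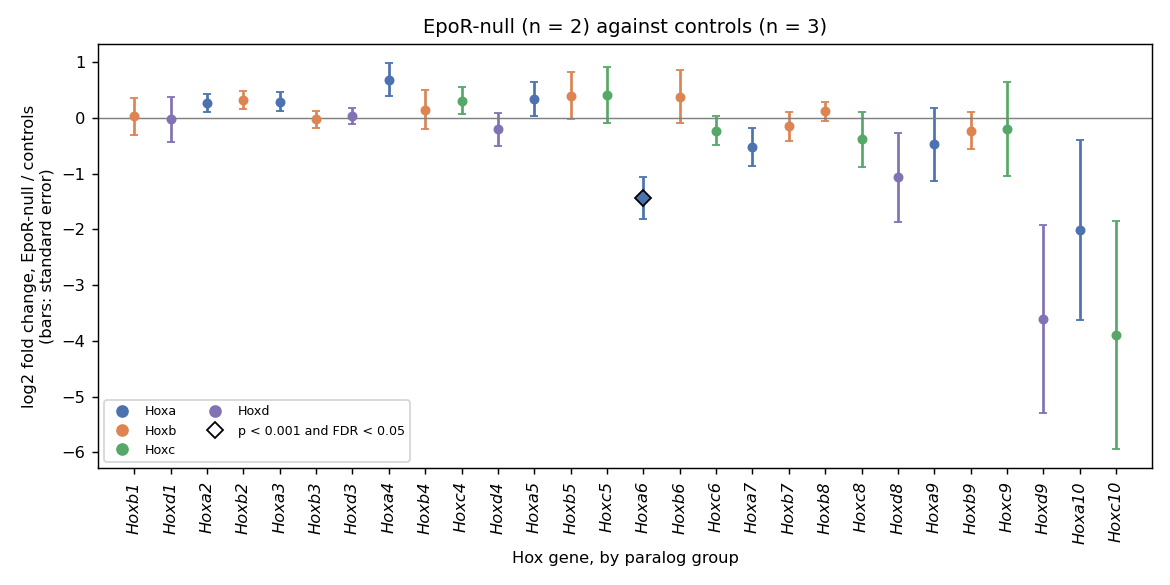
Log2 fold change of 28 of the 29 tested Hox genes, EpoR-null (n = 2) over controls (n = 3), ordered by paralog group and coloured by cluster, with bars of 1 standard error. Hoxa6 (diamond, -1.43) is the single member past both thresholds, and Hoxd9, Hoxa10 and Hoxc10 at the right have the largest estimates, with standard errors of 1.69, 1.61 and 2.05.

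Over the 29 members together the EpoR-null embryos differed from one another more than the wild type embryos did, though not by the median in groups 7 to 10. The median absolute difference in log2(CPM + 0.5) between EpoR-null 1 and 2 was 0.78 over the 29 members and 0.32 over all genes tested, and between wild type 1 and 2 it was 0.28 and 0.13. The sign changed along the axis. In paralog groups 1 to 3 the median difference, EpoR-null 1 minus EpoR-null 2, was 0.00 and 4 of 8 members were higher in EpoR-null 1. In groups 4 to 6 it was 0.81, with 9 of 10 members higher in EpoR-null 1, and in groups 7 to 10 it was -0.80, with 2 of 11 higher. Over all genes tested, 50.8% were higher in EpoR-null 1. This division into groups was made with the values known and is a description without a test.

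In groups 4 to 6, EpoR-null 1 was the highest of the 5 libraries for 7 of 10 members and EpoR-null 2 the lowest for 6. These are genes of the posterior hindbrain and cervical spinal cord. Hoxb5 was found at 25.1, 30.6 and 27.6 CPM in the controls, 53.5 CPM in EpoR-null 1 and 19.8 CPM in EpoR-null 2. Hoxb6 was found at 20.8, 19.5 and 22.4 CPM in the controls, 40.8 CPM in EpoR-null 1 and 13.7 CPM in EpoR-null 2. Hoxc5 was found at 26.6, 21.8 and 28.2 CPM in the controls, 51.7 CPM in EpoR-null 1 and 16.1 CPM in EpoR-null 2. In all 3 the controls stood together and the EpoR-null embryos lay on opposite sides of them. Their pooled log2 fold changes, 0.40, 0.38 and 0.41, were smaller than their standard errors of 0.43, 0.47 and 0.49. Without EpoR-null 2, with the spread taken from the controls alone, each passed the test, as did Hoxa4, with log2 fold changes of 0.94, 0.97, 1.02 and 1.04. Without EpoR-null 1 Hoxb5, Hoxb6 and Hoxc5 turned to -0.49, -0.61 and -0.66. Hoxa6, of the same block, was low in both EpoR-null embryos.

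In groups 7 to 10 the order was turned round for most members. Hoxb9 was found at 271, 256 and 295 CPM in the controls, 152 CPM in EpoR-null 1 and 316 CPM in EpoR-null 2. Hoxc8, which acts in brachial motor neurons, was found at 33.4, 22.8 and 36.7 CPM in the controls, 12.1 CPM in EpoR-null 1 and 35.4 CPM in EpoR-null 2. EpoR-null 1 was the lowest library for both, and EpoR-null 2 was within or above the controls. Hoxc9, which sets thoracic motor neuron identity, was also lowest in EpoR-null 1, at 2.42 CPM, and highest in EpoR-null 2, at 17.0 CPM, with controls at 13.7, 5.31 and 14.6 CPM. Hoxb9 and Hoxc8 had pooled log2 fold changes of -0.23 and -0.38 (edgeR FDR = 0.756 and 0.729). Without EpoR-null 2, again with the spread of the controls alone, both passed the test, at -0.85 and -1.36, and without EpoR-null 1 they were at 0.21 and 0.19.

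Hoxb1, which defines a single hindbrain segment and holds the Pbx-Hox match shown above, was found at 35.7, 25.6 and 36.7 CPM in the controls and 23.5 and 43.2 CPM in EpoR-null 1 and 2. It was lowest in EpoR-null 1 and highest in EpoR-null 2, as Hoxb9 and Hoxc9 were. Hoxd1 stayed between 2.03 and 3.18 CPM in all libraries.

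**Figure D4:**
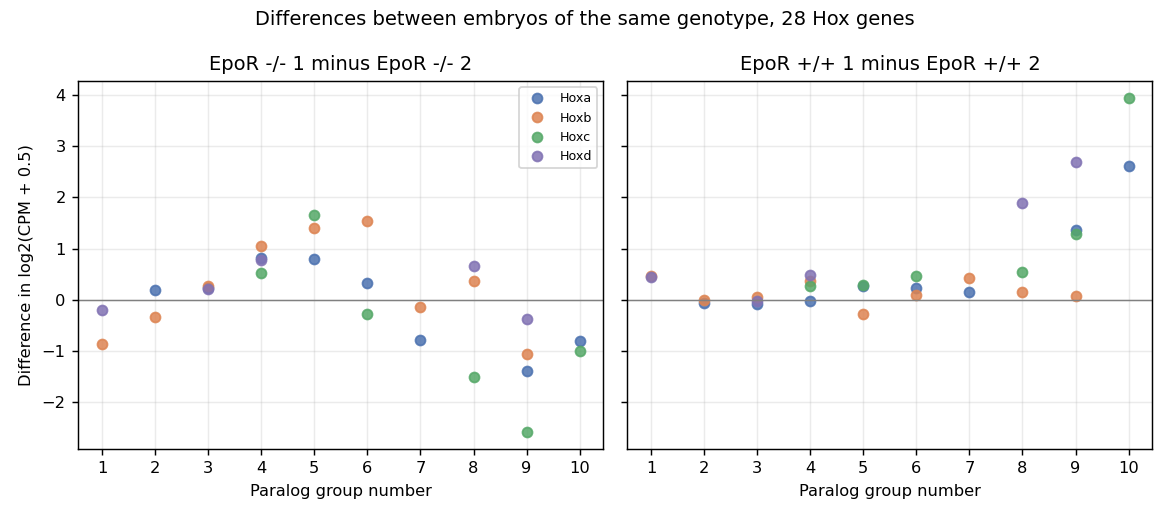
Difference in log2(CPM + 0.5) between embryos of the same genotype for 28 of the 29 tested Hox genes, against paralog group number and coloured by cluster, with EpoR-null 1 minus EpoR-null 2 on the left and wild type 1 minus wild type 2 on the right. On the left the points lie mostly above 0 in groups 4 to 6 (median 0.81) and mostly below 0 in groups 7 to 10 (median -0.80), and on the right all 11 members of groups 7 to 10 lie above 0 (median 1.29).

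Wild type embryos differed as well, and mainly at the posterior end. In groups 7 to 10 their median difference, 1.29, was larger in size than the -0.80 between the EpoR-null embryos. Gene by gene, the wild type difference was the larger in size for Hoxa10, Hoxb7, Hoxc10, Hoxd8 and Hoxd9. Of these, Hoxa10, Hoxc10 and Hoxd9 had 2, 0 and 1 reads in wild type 2. The EpoR-null difference was the larger for Hoxa7, Hoxa9, Hoxb8, Hoxb9, Hoxc8 and Hoxc9. Wild type 1 was above wild type 2 for 22 of the 29 members, and for 11 of 11 in groups 7 to 10, with a median difference of 1.29, whereas the medians were -0.01 in groups 1 to 3 and 0.27 in groups 4 to 6 (52.7% of all genes tested were higher in wild type 1). The heterozygote was close to wild type 1, with a median absolute difference of 0.10 over the 29 members, although its sums of somite, erythroid and endothelial markers were the lowest of the 5 libraries (9.03, 43.3 and 10.8 CPM, against 44.4, 1074 and 150 CPM in wild type 1).

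The most posterior members that were tested depended on these libraries. Hoxc10, a gene of the lumbar spinal cord, was found at 7.18 CPM in wild type 1, 0 CPM in wild type 2 and 4.10 CPM in the heterozygote, and at 0 and 0.492 CPM in EpoR-null 1 and 2 (174, 0 and 95 reads against 0 and 14). Hoxd9 was found at 2.89, 0.0238 and 2.12 CPM against 0.0505 and 0.211 CPM (70, 1 and 49 reads against 1 and 6), and Hoxa10 at 2.85, 0.0476 and 1.94 CPM against 0.151 and 0.633 CPM. All 3 were high in wild type 1 and the heterozygote and at or near the level of 3 reads in wild type 2 and EpoR-null 1. They had the largest estimates among the members, with log2 fold changes of -3.89, -3.60 and -2.01, and did not pass the test (edgeR FDR = 0.473, 0.349 and 0.625). Without wild type 2, Hoxd9 passed at -4.11 with an FDR of 4.4e-05. Hoxd8 had the same order in the controls, at 4.54, 0.857 and 4.40 CPM, with 2.02 and 1.09 CPM in EpoR-null 1 and 2.

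The members not yet described, Hoxa9, Hoxb4, Hoxb7 and Hoxc6, had log2 fold changes between -0.48 and 0.14, with FDR between 0.686 and 0.867. Hoxb4, a posterior hindbrain gene, was at 73.6 CPM in EpoR-null 1 and 35.5 CPM in EpoR-null 2 with controls between, as for group 5. Hoxa9 resembled Hoxc9, with 10.4, 3.74 and 9.41 CPM in the controls and 2.88 and 8.37 CPM in the EpoR-null embryos. In number of genes, the difference of EpoR-null 1 from wild type 1 and the heterozygote and that of EpoR-null 2 from wild type 2 had opposite signs in 19 of the 29 members, against 35.8% of all genes tested.

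Over 6 lists with 85 tested genes, 5 of factors known to act with or on Hox genes and 1 of genes inside or beside the Hox clusters, 3 passed both thresholds, and all 3 were lower Trithorax or demethylase genes of the list of Polycomb and Trithorax regulators (0 of 31 higher and 3 of 31 lower, where 0.929% and 3.84% of all genes tested were). Mll1, the histone H3 lysine 4 methyltransferase that maintains Hox transcription, was found at 94.7, 84.6 and 99.8 CPM in wild type 1, wild type 2 and the heterozygote and at 57.6 and 46.7 CPM in EpoR-null 1 and 2 (log2 fold change -0.83, edgeR FDR = 0.000141). Mll2, a related methyltransferase gene in the nomenclature of the files, was found at 75.1, 84.5 and 73.2 CPM against 45.8 and 49.7 CPM (-0.70, edgeR FDR = 0.000469). Kdm6b, a demethylase of the Polycomb mark, was found at 133, 148 and 134 CPM against 102 and 82.1 CPM (-0.59, edgeR FDR = 0.00834). In all 3 the genotypes did not overlap. Mll1 passed with each library left out, Mll2 failed only without wild type 1 (FDR = 0.0622), and Kdm6b failed when any library other than EpoR-null 1 was left out. With no block, none passed by the quasi-likelihood F-test (FDR between 0.0615 and 0.0805), while with the replicate number as a block Mll1 and Mll2 passed (FDR = 0.041 for both) and Kdm6b did not (FDR = 0.0677). With a dispersion common to all genes none of the 3 passed (edgeR exact test, FDR = 0.211 for Mll1, 0.373 for Mll2 and 0.524 for Kdm6b). For Kdm6b, which has a transcript length in the reference, offsets for length and GC content moved the log2 fold change to -0.34 (likelihood-ratio test, FDR = 0.382). Mll1 and Mll2 have no length there under these symbols, so the offsets were not tested for them. With the offsets 1.39% of all genes passed, against 5.05% by the same test without them. The Polycomb list had a median log2 fold change of -0.07, and its most abundant members, Rbbp4 and Psip1, gave 0.21 and -0.20 (FDR = 0.42 and 0.58).

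The Hox partners gave 0 calls of 9 tested by the exact test, with a median log2 fold change of 0.01. The most abundant, Pbx2 and Meis2, were found at 233, 224 and 234 CPM and at 188, 164 and 189 CPM in the controls and at 246 and 239 CPM and at 192 and 171 CPM in the EpoR-null embryos. In the retinoic acid list 0 of 12 passed both thresholds. Crabp1, which binds retinoic acid in the cell, passed FDR < 0.05 alone, where 7.31% of all genes did. Crabp1 was found at 515, 673 and 606 CPM in the controls and at 771 and 1145 CPM in EpoR-null 1 and 2 (log2 fold change 0.68, edgeR FDR = 0.0451). Both EpoR-null values lay above all controls. Crabp1 lost FDR < 0.05 when any of the 3 controls was left out (FDR between 0.126 and 0.465) and without EpoR-null 2 (0.206). It also lost it by the quasi-likelihood F-test (0.136), with a common dispersion (0.354) and with no filter (0.083), and offsets for length and GC content moved its log2 fold change to 0.14 (FDR = 0.999). Crabp2, the most abundant of the list, gave 0.40 (FDR = 0.37).

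Of the inputs from the caudal end of the embryo, 0 of 7 tested passed, with a median log2 fold change of 0.68. Wnt3a and Gdf11, the most abundant, gave -0.23 and -0.63 (edgeR FDR = 0.83 and 0.26). After their values were seen, Cdx2, Cdx4, Nkx1-2 and Cyp26b1 were singled out because they ordered the EpoR-null embryos as Hoxb9 did. Cdx2, a direct regulator of trunk Hox genes, was found at 3.01, 1.40 and 2.89 CPM in the controls, 0.151 CPM in EpoR-null 1 (3 reads) and 10.03 CPM in EpoR-null 2. Cdx4 was found at 1.73, 0.547 and 1.86 CPM, then 0 and 4.40 CPM, and Nkx1-2, a gene of the caudal neural plate, at 3.05, 3.47 and 3.63 CPM, then 0.454 and 6.79 CPM. Cyp26b1, which degrades retinoic acid, was found at 50.3, 34.4 and 48.0 CPM, then 11.3 and 64.5 CPM. Each was lowest in EpoR-null 1 and highest in EpoR-null 2. Of the other genes of the caudal list, Cdx1 shared that order, at 2.31, 3.33 and 2.16 CPM, then 1.82 and 6.65 CPM. Wnt3a shared it too, at 18.5, 23.2 and 19.5 CPM, then 9.64 and 25.0 CPM. So did Fgf8, which was not tested and had at most 7 reads in any library. Gdf11 and T did not share it. Gdf11 was at 19.6, 16.6 and 20.4 CPM in the controls, 15.3 CPM in EpoR-null 1 and 9.18 CPM in EpoR-null 2. T was at 6.81, 10.9 and 0.518 CPM, then 6.76 and 17.8 CPM. The part of the caudal end of the dissected tube in the Hox differences was not tested.

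**Figure D5:**
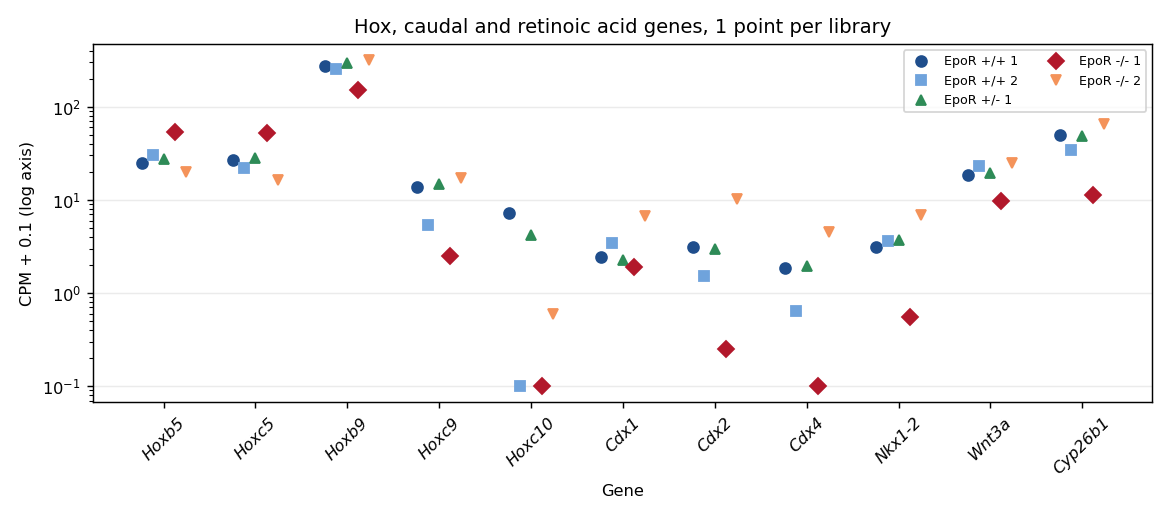
CPM plus 0.1, on a log axis, of 5 Hox genes, 5 genes of the caudal end and Cyp26b1, with 1 point per library and samples set side by side within a gene. Hoxb9, Hoxc9, Cdx1, Cdx2, Cdx4, Nkx1-2, Wnt3a and Cyp26b1 are lowest in EpoR-null 1 (diamond) and highest in EpoR-null 2 (downward triangle). Hoxb5 and Hoxc5 show the reverse.

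The hindbrain segment factors gave 0 calls of 7 tested, with a median log2 fold change of 0.31, and the most abundant, Nr2f1 and Nr2f2, gave 0.12 and 0.03. The genes inside or beside the Hox clusters that are not Hox genes gave 0 calls of 19, with a median of 0.17, and their most abundant members, Cbx5 and Hnrnpa3, gave -0.36 and 0.16 (edgeR FDR = 0.10 and 0.67).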

How the data were processed

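Per the labels, polyA RNA of 5 dissected mouse neural tubes was sequenced. The tools named in the submitters' notes are Trimmomatic 0.32 for trimming, TopHat2 2.1.0 for alignment and HTSeq 0.6.1 for counting. The authors deposited 1 table per embryo of unnormalized counts, a whole number of reads for each gene symbol. The submitters' notes name the build mm9, while the study's methods name a human build, and the annotation and strand setting are not given in the sources used here. Reads overlapping several genes (1.84 to 2.31% of the reads on a gene, on several genes or on none, the last being 8.11 to 11.0%) were left out by the counter, which lowers the count of overlapping Hox genes. The 5 summary lines of each table were not used as genes.

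The analysis was run in edgeR 4.0.16 under R 4.3.3. Only genes exceeding 1 CPM in 2 or more libraries entered the test. As in the study's methods, TMM normalization and exactTest were used, with tagwise dispersions from estimateDisp, EpoR-null against the 3 controls, Benjamini-Hochberg adjustment over all 12703 genes and thresholds of p < 0.001 and FDR < 0.05. Standard errors came from the negative binomial information. CPM used TMM-scaled library sizes, and 0.5 was added before log2 differences between embryos. Length, GC content and exon overlap came from GENCODE M21, matched by symbol, with no coordinates carried between builds. Lengths were those of the longest annotated transcript. Scripts were tested on simulated data.

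The members and gene lists were chosen with earlier results of these data known. Every member was accounted for in the counts and sums, but the results of 1 member and 1 listed gene are not reported here. Values in every sample were given for members past FDR < 0.05, for the 3 with the highest mean CPM in each cluster and for those whose call 1 library decided, and from each list of regulators for members past FDR < 0.05 and the 2 with the highest mean CPM. Other members and genes shown were chosen after their values were seen. The alternatives were RLE size factors, library totals, the lack of a filter, a minimum of 10 reads per library, a dispersion common to all genes, counts thinned to the smallest total, the quasi-likelihood F-test without and with the replicate block, DESeq2 1.42.0, the likelihood-ratio test without and with loess offsets (span 0.5) on length and GC content, and each sample left out. Earlier dispersion functions, DESeq2 without independent filtering and the heterozygote as its own group were added after seeing the data.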

Additional observations from a re-analysis of the deposited data

How the results depend on the processing

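Depth limits the statements on paralog groups 10 to 13, where 3 reads are worth up to 0.151 CPM, and 2 EpoR-null embryos limit every comparison of genotypes. Of 517 log2 fold changes of Hox genes recomputed under the alternatives, 468 kept their direction and their side of the threshold. Most of these belong to members that were short of the threshold in the main fit and had no call to lose. Hoxa6, the only member past it there, kept its direction in 18 of 18 settings but stayed past the threshold in 10 and fell short in 8.

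The single call among Hox genes (Hoxa6) was lost, leaving 0 calls and 0 at FDR < 0.05, under the quasi-likelihood F-test without the block (Hoxa6 log2 fold change -1.43, FDR 0.0697), with the earlier dispersion functions (-1.43, FDR 0.0798) and with the heterozygote as its own group (-1.42, FDR 0.315). Of all genes, 0, 351 and 0 passed there. In these settings 4, 4 and 1 Hox genes had an unadjusted p below 0.05, where 24, 15.3 and 13.5% of all genes did. DESeq2 gave 0 calls and 0 at FDR < 0.05 because it left the adjusted p of 6 Hox genes, Hoxa6 among them, at NA. Without independent filtering it called Hoxa6 (FDR 0.00354). A common dispersion gave 4 calls and 4 at FDR < 0.05 (Hoxa6, Hoxa10, Hoxc10, Hoxd9), where 2.02% of all genes were called. It takes a coefficient of variation between embryos of 0.23 for every gene. The gene-wise values were 1.19 for Hoxa10, 1.52 for Hoxc10 and 1.20 for Hoxd9, so it understates their spread. With the replicate block there were 0 calls, 1 gene at FDR < 0.05 (Hoxa6, -1.38, FDR 0.0487), and 291 calls over all genes. No litter, day or batch is given for the numbers, so the block is not taken as a pairing. The differences between numbers 1 and 2 in EpoR-null and in wild type embryos correlated with r = 0.47 over all genes and r = -0.36 over the 29 Hox genes, and the block turned Hoxb1 to -0.0033. In the regulator lists the 3 calls became 0 under the quasi-likelihood F-test without the block and 0 with the heterozygote as its own group. In each of these settings 0% of all genes passed. The calls became 5 under DESeq2 with or without independent filtering, where 8.09 and 8.19% of all genes passed. They became 1 under the likelihood-ratio test without offsets and 0 with offsets, where 5.05 and 1.39% of all genes passed. Both likelihood-ratio fits leave out genes with no length, Mll1 and Mll2 among them. With a common dispersion Mll1, Mll2 and Kdm6b all failed (edgeR FDR = 0.211, 0.373 and 0.524).

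Log2 fold changes near 0 changed sign in a few settings. Library totals gave -0.034 for Hoxb1 and -0.011 for Hoxd3, and no filter gave -0.0059 and -0.0035. Length and GC offsets gave -0.27 for Hoxb1, -0.055 for Hoxb4, -0.067 for Hoxb8 and -0.14 for Hoxd3, and the heterozygote as its own group gave 0.011 for Hoxb3 and 0.049 for Hoxc9. The cause was not tested.

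With each embryo left out, Hox calls ranged from 0 to 6, Hox genes at FDR < 0.05 from 0 to 10, regulator calls from 1 to 17, and Hoxa6 from -1.65 to -1.22. With an EpoR-null embryo left out, the controls alone supply the spread. The highest Hox counts came without EpoR-null 2 and the highest regulator count without EpoR-null 1. The share of all genes passing both thresholds, given above, was also highest without EpoR-null 1 and next highest without EpoR-null 2. The highest regulator count is therefore not taken as particular to these lists. The highest Hox counts rest on EpoR-null 1 alone against the controls, so they are not taken as an effect of genotype. For the counts at FDR < 0.05 alone, the share of all genes is not given for these fits. Whether Hox genes passed that threshold more often than other genes therefore cannot be told. The ranges of the genes that changed sign were -0.13 to 0.68 for Hoxa5, -1.45 to 0.10 for Hoxa9, -0.47 to 0.41 for Hoxb1, -0.17 to 0.11 for Hoxb3, -0.47 to 0.58 for Hoxb4, -0.49 to 0.94 for Hoxb5, -0.61 to 0.97 for Hoxb6, -0.080 to 0.30 for Hoxb8, -0.85 to 0.21 for Hoxb9, -0.66 to 1.02 for Hoxc5, -1.36 to 0.19 for Hoxc8, -2.20 to 0.60 for Hoxc9, -0.15 to 0.19 for Hoxd1, -0.082 to 0.14 for Hoxd3 and -0.64 to 0.13 for Hoxd4. The difference of the summed CPM, EpoR-null minus controls, ranged from -16.4 to 33.9 for paralog group 3, -56.8 to 84.7 for group 4, -19.6 to 67.4 for group 5, -11.7 to 11.7 for group 6 and -138 to 46.8 for group 9, in each case between the fits without EpoR-null 1 and without EpoR-null 2.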
